A study of Mus musculus with 28 samples.

Results

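Nascent RNA was examined for 10 genes of glycolysis and glucose uptake, *Hk2*, *Pfkl*, *Pfkp*, *Aldoa*, *Gapdh*, *Eno1*, *Pkm*, *Ldha*, *Slc2a1* and *Slc2a3*, chosen by name from the 24984 genes listed in each of 3 expression tables. All 10 were present in every table. The tables came from Bru-seq, which reads nascent transcripts: newly made RNA is tagged with bromouridine (BrU) for some minutes, pulled down with an antibody to BrU and sequenced. The cells were mouse embryonic stem cells (mESCs) of the CCE28 line, either wild-type (WT) or EloA null, that is, lacking Elongin A, a subunit of an RNA polymerase II (Pol II) elongation factor. Each genotype was measured with 2 libraries in each of 3 conditions, 12 libraries in all. In steady state, cells not given flavopiridol were labeled with 2 mM BrU for 10 min. In the other conditions, cells were treated for 60 min with 1 µM flavopiridol (FP), an inhibitor of P-TEFb that stops productive elongation, washed, and labeled with 2 mM BrU during 5 min or 10 min of recovery. All cells were grown with LIF and with the inhibitors PD0325901 and CHIR99021 on feeder fibroblasts, from which they were depleted before labeling.

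The treatment label names CJ7 cells where the growth label names CCE28. Which part of *Eloa* the null allele lacks, and whether the lines are single clones, is not given in the sources used here. The first steady-state library titled EloA null carries a genotype label of wild type. It was kept in the group of its title. Values without it are given for members whose steady-state genotype difference rests on it. Genes of other lists that passed 1.5-fold in steady state only through it are marked as such. *Eloa* itself gave steady-state levels of 1.18 and 1.16 RPKM in WT and 1.96 and 1.89 RPKM in the libraries titled EloA null, with both null libraries also above both WT libraries in each recovery table (2.96 and 2.82 against 5.14 and 6.25 RPKM after 5 min, 4.65 and 6.51 against 8.74 and 8.93 RPKM after 10 min). Since the deleted part is not known here, these levels do not check the deletion. The library with the wild-type label was thus closer in *Eloa* to the other library titled EloA null than to either WT library of its table. Library sizes as used for the RPKM, recovered from the spacing of low RPKM values, ran from 9857527 to 28547357 reads. Whether they include a scaling factor is not given. Of 10 mESC markers, all were above 0.5 RPKM in every library, with summed levels of 192 to 334 RPKM. *Zfp42*, *Tbx3* and *Nanog* were the highest of them in WT in steady state, and *Pou5f1* was the 1 marker past 1.5-fold without overlap between genotypes (7.36 and 8.48 RPKM in WT and 10.6 and 16.5 RPKM in EloA null cells in steady state). The 12 fibroblast feeder markers summed to between 1.41 and 3.72 RPKM, with at most 3 of them above 0.5 RPKM in a library and with *Thy1*, *Dcn* and *Lum* at 0 in 3, 5 and 7 libraries. *Col5a1* was the 1 feeder marker expressed in steady state (0.603 and 0.596 RPKM in WT and 0.627 and 0.656 RPKM in EloA null cells), and *Col1a1* was past 1.5-fold lower in EloA null cells after 5 min (0.794 and 0.711 against 0.573 and 0.385 RPKM). There *Col1a1* passed the limit of 0.5 RPKM only through WT (mean 0.753 RPKM in WT and 0.479 RPKM in EloA null cells). The study calls its duplicates independent experiments, but whether they came from separate cultures is not stated in the labels, so p-values measure only the spread between these libraries, which may be technical. With 2 libraries against 2, an exact permutation test cannot go below p = 0.333, so limma was used across all genes.

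Glycolysis splits glucose into pyruvate in the cytosol and yields ATP and NADH without oxygen. Glucose enters through facilitative transporters, is trapped as a phosphate by hexokinase, is committed at the phosphofructokinase step, and is cleaved, oxidized and rearranged until pyruvate kinase makes pyruvate, which lactate dehydrogenase can turn into lactate. Pluripotent stem cells are known for high glycolytic flux, and many of these genes are known targets of the hypoxia-inducible factors (HIFs) and of Myc.

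The 10 genes covered a wide range of lengths, which matters here because a gene's RPKM after release from FP depends on how much of it Pol II has crossed. Coordinates are those of RefSeq on GRCm38, the assembly behind the mm10 build used by the authors. *Gapdh* (chr6:125161852-125166467, minus strand) spanned 4.62 kb, *Aldoa* (chr7:126795234-126800447, minus strand) 5.21 kb and *Ldha* (chr7:46845804-46855627, plus strand) 9.82 kb. Of middle length were *Eno1* (chr4:150236708-150248879, plus strand), *Slc2a3* (chr6:122727809-122742745, minus strand), *Pkm* (chr9:59656576-59679372, plus strand), *Pfkl* (chr10:77986947-78009807, minus strand) and *Slc2a1* (chr4:119108745-119137330, plus strand), with 12.2, 14.9, 22.8, 22.9 and 28.6 kb. *Hk2* (chr6:82725025-82774454, minus strand) and *Pfkp* (chr13:6579874-6648771, minus strand) were long, with 49.4 and 68.9 kb. The steps between values fitted a division of each member's RPKM by its summed intron length. In *Eno1* the length that fitted was 9923 bases, not the 10449 bases over all its transcripts. More than 1 length fitted *Pfkl* and *Slc2a3*. The levels are thus taken as per kb of intron, although the methods describe counting reads over whole genes. Whether reads in exons were counted could not be told from the values. *Pfkp* overlaps *Pitrm1*, and *Pkm*, *Ldha* and *Slc2a1* overlap predicted RefSeq genes, so reads there may be shared.

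The RefSeq promoter table of GRCm38.p6 held 9 of the 10 genes, all but *Slc2a3*. The sequences of 4 are shown as examples of both directions of the differences described below, none of which passed the test: *Aldoa* and *Gapdh* had the largest ratios of EloA null to WT in steady state, and *Hk2* and *Pkm* were the members lower in both EloA null libraries at both times of recovery. Each line holds the 250 bases before a transcription start (of several starts, the one of the lowest-numbered curated transcript whose window holds no exon of the gene), 5′ to 3′ on the gene's strand. Capitals mark ACGTG or GCGTG, the core of the HIF response element, on either strand (CACGT or CACGC on the strand shown). The windows of *Aldoa* and *Gapdh* lie within the annotated span of the gene, since other transcripts start further upstream.
Aldoa chr7:126799255-126799504 (minus strand): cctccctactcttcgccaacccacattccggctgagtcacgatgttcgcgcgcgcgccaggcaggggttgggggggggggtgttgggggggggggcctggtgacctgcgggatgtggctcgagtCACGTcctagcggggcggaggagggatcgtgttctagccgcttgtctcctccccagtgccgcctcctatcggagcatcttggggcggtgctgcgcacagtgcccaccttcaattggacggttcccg
Gapdh chr6:125165774-125166023 (minus strand): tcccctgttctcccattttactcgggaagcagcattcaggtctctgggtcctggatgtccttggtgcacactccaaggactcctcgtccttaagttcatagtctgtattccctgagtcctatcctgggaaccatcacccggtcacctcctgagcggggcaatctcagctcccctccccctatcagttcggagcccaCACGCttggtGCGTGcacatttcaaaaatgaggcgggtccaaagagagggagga
Hk2 chr6:82774455-82774704 (minus strand): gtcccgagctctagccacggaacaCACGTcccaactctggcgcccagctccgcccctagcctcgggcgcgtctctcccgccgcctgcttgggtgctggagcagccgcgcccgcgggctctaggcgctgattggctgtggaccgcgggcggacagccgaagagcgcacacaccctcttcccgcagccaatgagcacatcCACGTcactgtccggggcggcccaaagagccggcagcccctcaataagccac
Pkm chr9:59656326-59656575 (plus strand): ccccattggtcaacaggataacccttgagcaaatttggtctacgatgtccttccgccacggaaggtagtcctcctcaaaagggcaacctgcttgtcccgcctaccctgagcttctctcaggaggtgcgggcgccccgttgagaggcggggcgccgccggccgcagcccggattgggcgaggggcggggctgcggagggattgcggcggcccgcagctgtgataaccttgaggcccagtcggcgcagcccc
A match was present in 7 of the 8 members' windows that hold no exon, and 38.6% of all 32851 promoter entries hold such a match in the same 250 bases, windows with exons included. *Hk2* had 2 matches and *Aldoa* 1 match to ACGTG, *Gapdh* had 2 matches to GCGTG, and *Pkm* had none. Of the pair lower in EloA null cells in recovery, 1 therefore held these letters and 1 did not.

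In WT cells at steady state the level of the 10 genes spread over a range from 1.06 to 14.7 RPKM. *Gapdh*, which encodes the enzyme that oxidizes glyceraldehyde 3-phosphate, was the highest with 14.7 ± 0.186 RPKM (SD, n = 2) and ranked 313 among 10796 genes expressed above 0.5 RPKM. It was followed by *Pkm* (pyruvate kinase), *Eno1* (enolase) and *Slc2a3* (the glucose transporter GLUT3), at 13.3 ± 1.01, 12.6 ± 1.17 and 11.9 ± 0.781 RPKM, whose libraries overlapped from each to the next. *Aldoa* (aldolase), *Hk2* (hexokinase 2) and *Slc2a1* (the glucose transporter GLUT1) formed a second run of overlapping levels, at 7.25 ± 0.456, 6.61 ± 0.613 and 5.81 ± 0.855 RPKM. *Pfkp*, which encodes the platelet-type subunit of phosphofructokinase, stood apart at 3.55 ± 0.462 RPKM, as did *Ldha* (lactate dehydrogenase A) at 2.88 ± 0.0671 RPKM. *Pfkl*, the liver-type subunit, was the lowest at 1.06 ± 0.259 RPKM and ranked 8155. From 75.9% (*Pfkp*) to 97.1% (*Gapdh*) of expressed genes lay below the 8 higher members, 67.8% below *Ldha* and 24.5% below *Pfkl*.

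**Figure D1:**
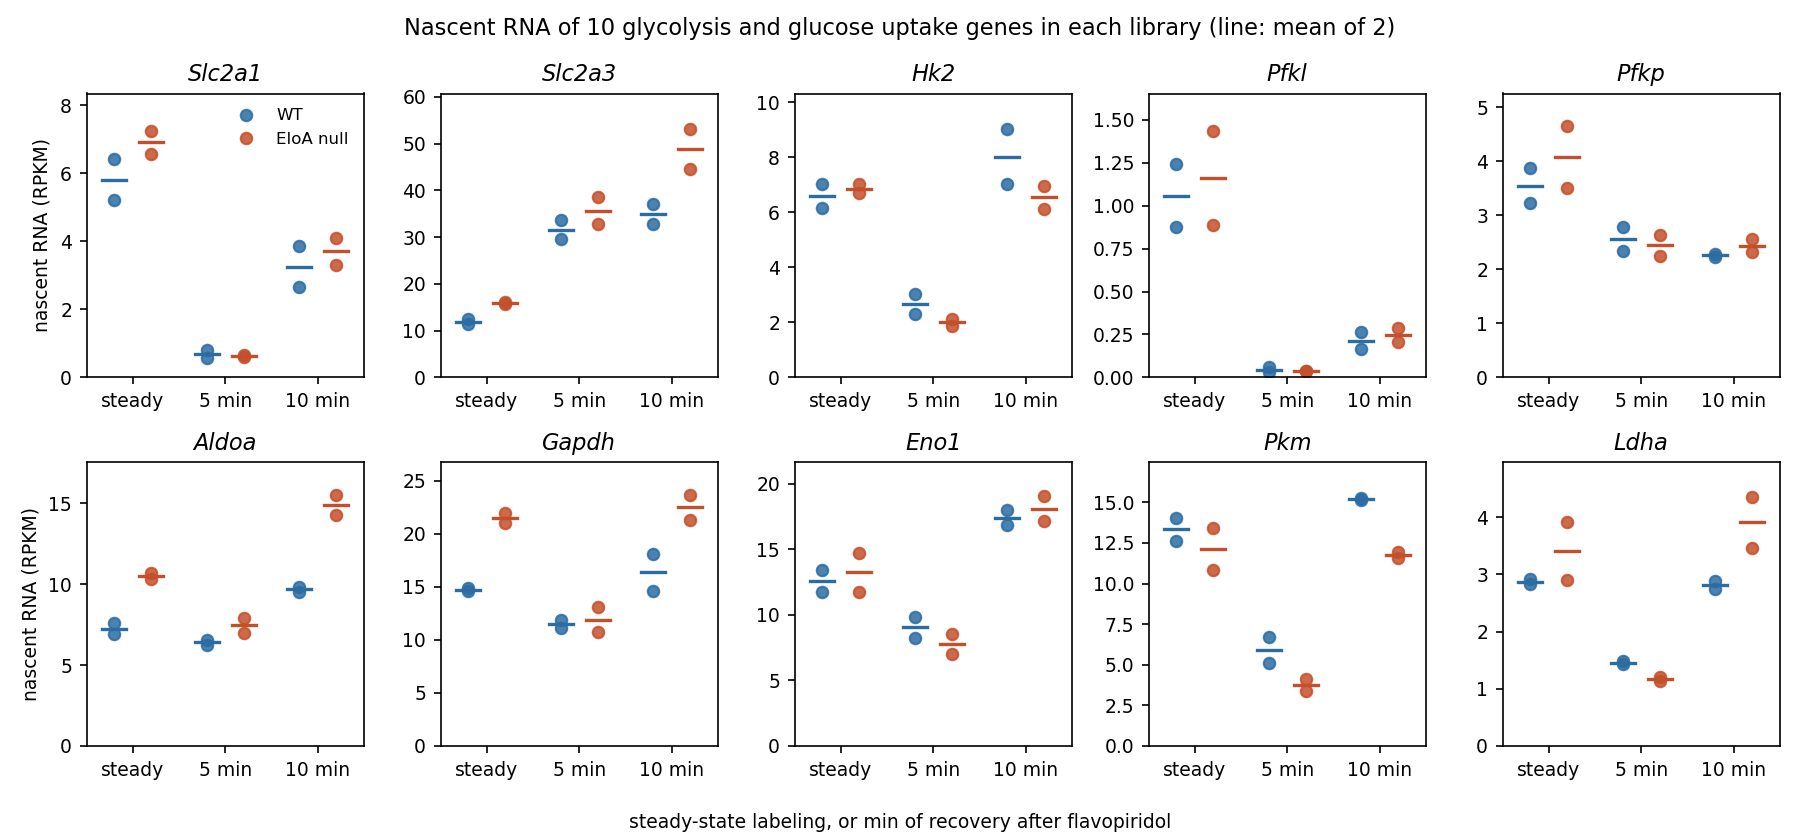
Nascent RNA in RPKM (vertical axis, from 0, own scale per gene) of each of the 10 genes in the 2 WT (blue) and 2 EloA null (orange) libraries of each condition (horizontal axis), with lines at the means. *Slc2a3* was above its steady-state level at both times of recovery, while *Slc2a1* and *Pfkl* were below theirs.

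To ask whether loss of EloA changed nascent transcription of these genes under steady-state conditions, EloA null and WT libraries were compared within the steady-state table. *Aldoa*, *Gapdh*, *Slc2a1* and *Slc2a3* were higher in both EloA null libraries than in both WT libraries, 4 of 10 members against 32% of the 11347 genes tested, and no member was lower in both, against 21.4%. In such bulk samples, fewer cells of a type and less RNA per cell cannot be told apart. None passed the test: limma called 0 genes in the whole table at a Benjamini-Hochberg adjusted p of 0.05, with 2083 genes (18.4%) and 3 members at an unadjusted p under 0.05. With all 12 libraries sharing 1 estimate of the spread, limma called 132 genes, among them *Aldoa* (adjusted p = 0.0478), and with robust variances 81 genes and no member.

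Of the transporters, *Slc2a3* gave 12.5 and 11.4 RPKM in WT and 15.6 and 16.1 RPKM in EloA null cells. The groups were apart, with a ratio of means of 1.33 (log2 fold change 0.41, SE 0.10, limma adjusted p = 0.168). *Slc2a1* gave 6.41 and 5.20 RPKM in WT and 7.25 and 6.58 RPKM in EloA null cells, a ratio of 1.19 in which the nearest libraries of the genotypes almost met (log2 fold change 0.25, SE 0.14, limma adjusted p = 0.392).

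*Aldoa* and *Gapdh* had the largest ratios of the members. *Aldoa*, whose product cleaves fructose 1,6-bisphosphate, gave 6.93 and 7.57 RPKM in WT and 10.7 and 10.3 RPKM in EloA null cells. Both null libraries were well above both WT libraries, with a ratio of 1.45 (log2 fold change 0.53, SE 0.10, limma adjusted p = 0.120). *Gapdh* gave 14.9 and 14.6 RPKM in WT and 21.1 and 22.0 RPKM in EloA null cells. Again the groups were well apart, with a ratio of 1.46 (log2 fold change 0.54, SE 0.09, limma adjusted p = 0.119). *Aldoa* and *Gapdh* are rich in G and C (56.1% and 55.0% of bases), and with the trend of each library with GC content removed their log2 fold changes were 0.23 and 0.26.

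For the other 6 members the genotypes overlapped. *Hk2*, which traps glucose in the cell, gave 7.04 and 6.18 RPKM in WT and 6.69 and 7.03 RPKM in EloA null cells (log2 fold change 0.05, 95% interval -0.23 to 0.34). *Eno1* gave 13.4 and 11.8 against 14.7 and 11.8 RPKM, and *Pkm* 14.0 and 12.6 against 13.4 and 10.9 RPKM. *Pfkp* gave 3.87 and 3.22 against 4.65 and 3.50 RPKM. *Ldha* gave 2.92 and 2.83 against 3.92 and 2.91 RPKM, and *Pfkl* 1.24 and 0.876 against 1.43 and 0.890 RPKM, a pair of genotypes whose interval (-0.63 to 0.84 on the log2 scale) leaves room for changes past 1.5-fold in either direction. In *Pfkp*, *Eno1*, *Ldha* and *Pfkl* the highest library was the EloA null library with a genotype label of wild type, and without it the log2 fold changes of *Pfkp*, *Eno1*, *Ldha* and *Pfkl* were -0.012, -0.095, 0.017 and -0.21, in place of 0.19, 0.07, 0.23 and 0.11.

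No member was past a 1.5-fold ratio, against 7.21% of genes higher and 2.1% lower, although 1 member was without the second WT library. With the trend with GC content removed, 505 genes were higher and 294 lower, in place of 818 and 238. Without the EloA null library whose genotype label says wild type, the same 4 members were above both WT libraries, *Aldoa* with a log2 fold change of 0.51, *Gapdh* 0.57, *Slc2a3* 0.44 and *Slc2a1* 0.18. *Pkm* was then below both WT libraries, and *Eno1* all but equaled the lower of them (11.763 against 11.769 RPKM in WT).

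**Figure D2:**
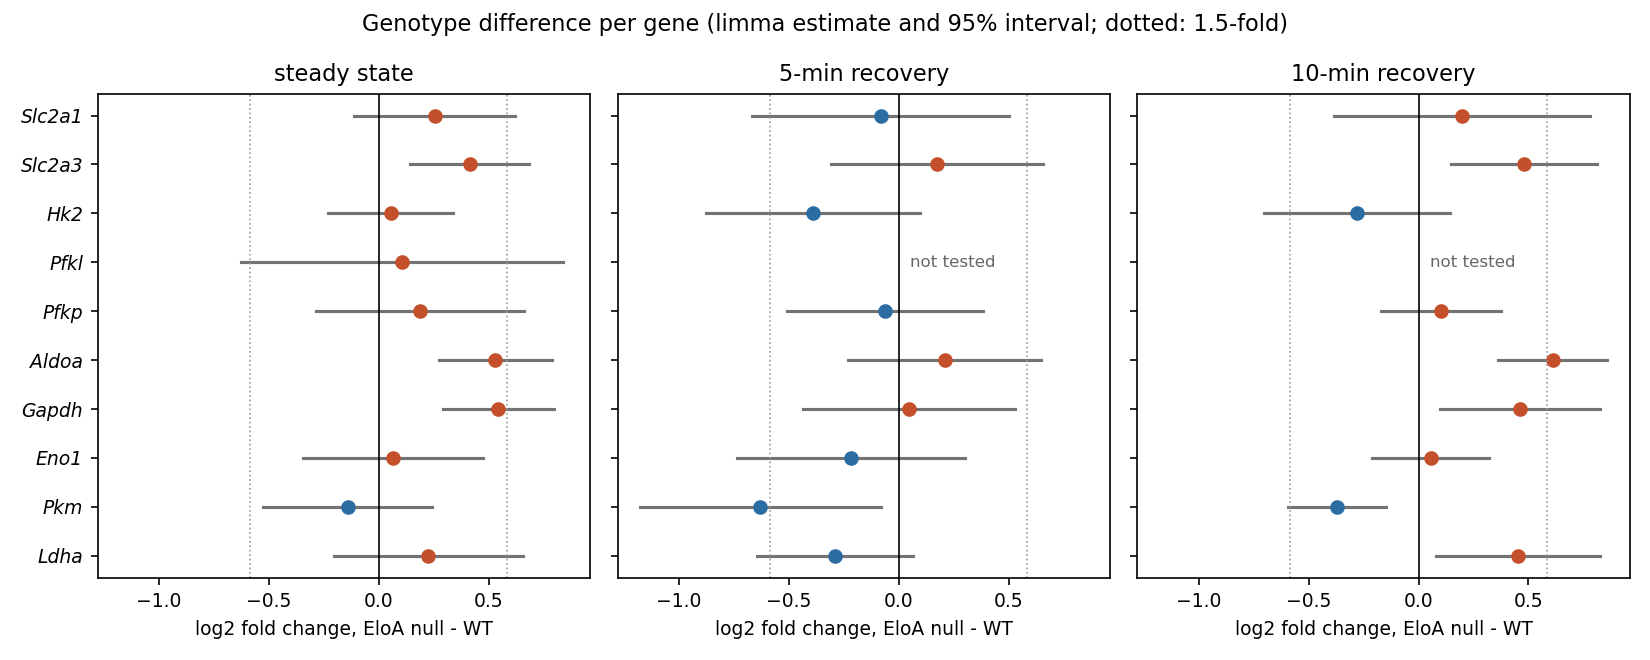
Log2 fold change of EloA null against WT (horizontal axis, on log2(RPKM + 0.1)) of each gene in the 3 conditions, as limma estimates (orange above 0, blue below) with 95% intervals (grey lines). The steady-state intervals of *Aldoa* (0.27 to 0.79), *Gapdh* (0.29 to 0.80) and *Slc2a3* (0.14 to 0.68) lay above 0, and that of *Pkm* lay below 0 at both times of recovery.

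Recovery from FP was then described in WT cells by the ratio of the level after release to the level in steady state. The 3 tables were deposited separately, and how their values were scaled to each other is not given. A ratio is thus read only relative to the other genes of its library, and no test was run on it. After 5 min, 5 members were more than 1.5-fold below steady state, *Pfkl*, *Slc2a1*, *Hk2*, *Pkm* and *Ldha*, against 52.7% of 10796 expressed genes, and 1, *Slc2a3*, was more than 1.5-fold above it, against 13.4%. After 10 min these counts were 3 (*Pfkl*, *Slc2a1* and *Pfkp*) and 1 (*Slc2a3*), against 28.5% and 31.8%.

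The transporters lay at opposite ends. *Slc2a3* gave 12.5 and 11.4 RPKM in steady state, 33.6 and 29.6 RPKM after 5 min and 32.8 and 37.0 RPKM after 10 min, ratios of 2.65 ± 0.242 and 2.93 ± 0.247 (SD, n = 2). After 5 min it was above 97.9% of expressed genes of 10 to 30 kb, whose median ratio was 0.571. *Slc2a1* gave 0.795 and 0.573 RPKM after 5 min and 3.86 and 2.65 RPKM after 10 min, ratios of 0.118 ± 0.0270 and 0.560 ± 0.147, of which the first was above only 2.13% of genes of its length class. It was thus 8.49-fold below its steady-state level after 5 min, and both libraries were higher after 10 min than after 5 min.

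The phosphofructokinase subunits also differed from each other. *Pfkl* gave 0.0582 and 0.0288 RPKM after 5 min, on 7 to 13 reads a library over both genotypes, and 0.263 and 0.166 RPKM after 10 min. It was 24.3-fold below steady state after 5 min and 4.94-fold below after 10 min, and after 5 min only 0.0583% of genes of 10 to 30 kb had a lower ratio. *Pfkp*, the longest member, gave 2.78 and 2.34 RPKM after 5 min and 2.23 and 2.28 RPKM after 10 min, ratios of 0.721 and 0.636 that lay near the medians of genes over 30 kb (0.589 and 0.700).

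*Pkm* has almost the length of *Pfkl*, and 47.4% and 47.7% of their intron bases lie within 10 kb of the start of the gene. *Pkm* nevertheless gave 6.73 and 5.11 RPKM after 5 min and 15.3 and 15.1 RPKM after 10 min, ratios of 0.444 ± 0.0861 and 1.14 ± 0.00921. The first intron is 8.55 kb in *Pkm* and 4.08 kb in *Pfkl*, and whether this has a part in the difference was not tested.

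Of the remaining members, *Hk2* and *Ldha* were more than 1.5-fold below steady state after 5 min, and *Aldoa*, *Gapdh* and *Eno1* were not. *Aldoa* (6.57 and 6.26 RPKM after 5 min, 9.84 and 9.54 RPKM after 10 min) had ratios of 0.885 and 1.34. *Gapdh* (11.1 and 11.8, then 18.1 and 14.7 RPKM) had ratios of 0.780 and 1.11, close to the medians of genes under 10 kb (0.788 and 1.23). *Ldha* (1.44 and 1.48, then 2.74 and 2.89 RPKM) was 1.97-fold below steady state after 5 min and at a ratio of 0.979 after 10 min. After 10 min these 3 short genes were thus all within 1.5-fold of the steady-state level. *Eno1* (9.87 and 8.21, then 18.0 and 16.8 RPKM) had ratios of 0.717 and 1.38. *Hk2* (3.02 and 2.31, then 9.03 and 7.02 RPKM) had ratios of 0.403 and 1.21, the second above 85.1% of genes over 30 kb, although its length is 49.4 kb.

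**Figure D3:**
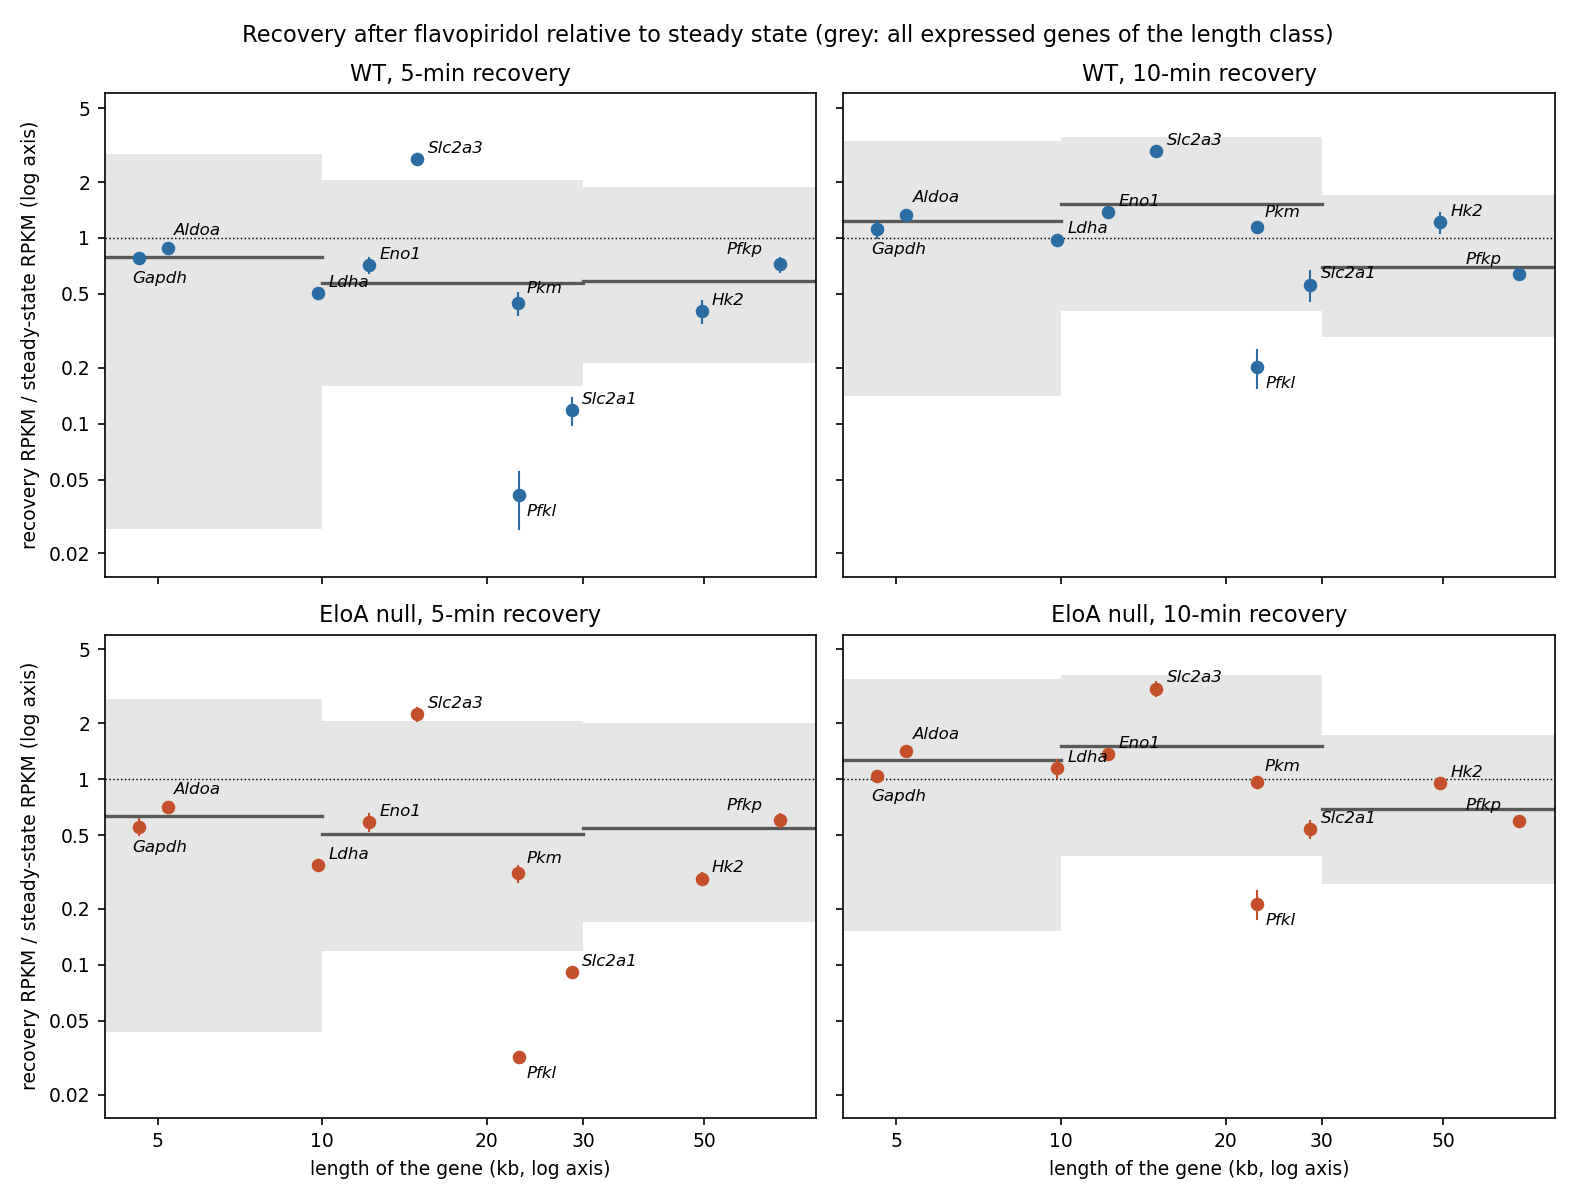
Ratio of recovery RPKM to steady-state RPKM (vertical log axis) against gene length in kb (horizontal log axis) in WT (blue) and EloA null (orange) cells; points are ratios of means, vertical lines join the 2 libraries, black lines and grey bands are the median and the 5th to 95th percentile of all expressed genes of a length class, and the dotted line is at 1. *Pfkl* and *Slc2a1* lay below the grey band and *Slc2a3* above it after 5 min in both genotypes.

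In EloA null cells 8 members were more than 1.5-fold below steady state after 5 min, all but *Aldoa* (1.41-fold below) and *Slc2a3*, against 57.6% of 11130 expressed genes. The count was 5 when each library was centred on its median. *Slc2a3* was again above, at a ratio of 2.25 ± 0.253, against 12.6% of genes. *Pfkl* and *Slc2a1* were 31.3-fold and 10.9-fold below. After 10 min 3 members were below (*Pfkl*, *Slc2a1* and *Pfkp*, against 29.5%) and *Slc2a3* was above, at a ratio of 3.07 ± 0.385 (against 32.4%). The number above was 2 without the first steady-state EloA null library. *Pfkp* was below at both times only through that library, whose genotype label is wild type (steady-state levels 4.65 and 3.50 RPKM). Against the second steady-state library alone, *Pfkp* (means of 2.44 RPKM after 5 min and 2.43 RPKM after 10 min) was less than 1.5-fold below. With each library scaled to the median of genes under 10 kb, 6 members were below after 10 min.

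The genotypes were next compared within each recovery table, where *Pfkl* was under the limit of 0.5 RPKM and was not tested. After 5 min *Pkm*, *Hk2* and *Ldha* were lower in both EloA null libraries, 3 of 9 members against 25% of the 8985 genes tested, and *Aldoa* was higher in both, against 15.4%. limma called 0 genes at an adjusted p of 0.05, with 846 genes (9.42%) and 1 member at an unadjusted p under 0.05. It called 532 genes and no member with 1 estimate of the spread over all 12 libraries and 29 genes with robust variances.

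*Pkm*, whose product makes pyruvate, gave 6.73 and 5.11 RPKM in WT and 4.15 and 3.40 RPKM in EloA null cells after 5 min. Both null libraries were below both WT libraries, at a ratio of 0.638 (log2 fold change -0.63, SE 0.22, limma adjusted p = 0.505), and *Pkm* was the 1 member past 1.5-fold, against 6.72% of genes lower and 5.4% higher. The count was 0 without the first WT library, without the second EloA null library and with each library centred on its median, and 2 without the second WT library. *Hk2* gave 3.02 and 2.31 RPKM in WT and 2.13 and 1.86 RPKM in EloA null cells, a ratio of 0.750 with a small gap between the groups (log2 fold change -0.39, SE 0.19, limma adjusted p = 0.604).

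*Ldha*, whose product makes lactate, gave 1.44 and 1.48 RPKM in WT and 1.21 and 1.14 RPKM in EloA null cells after 5 min (118 to 164 reads). The libraries of a genotype lay close together, at a ratio of 0.806 (log2 fold change -0.29, SE 0.14, limma adjusted p = 0.597). *Aldoa* gave 6.57 and 6.26 RPKM in WT and 6.99 and 7.91 RPKM in EloA null cells, a ratio of 1.16 (limma adjusted p = 0.768). *Slc2a3* (33.6 and 29.6 against 32.8 and 38.5 RPKM), *Gapdh* (11.1 and 11.8 against 10.8 and 13.1 RPKM), *Slc2a1* (0.795 and 0.573 against 0.609 and 0.658 RPKM), *Pfkp* (2.78 and 2.34 against 2.64 and 2.25 RPKM) and *Eno1* (log2 fold change -0.22) overlapped between genotypes. *Pfkl* was as low in EloA null cells as in WT, with 0.0350 and 0.0393 RPKM. The summed level of the feeder markers was 2.25 to 2.56 RPKM in WT and 1.41 to 1.94 RPKM in EloA null cells in this table, and that of the mESC markers was 263 to 291 RPKM in WT and 200 to 259 RPKM in EloA null cells. The part of either in these differences was not tested.

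After 10 min of recovery 5 of 9 members were higher in both EloA null libraries, *Aldoa*, *Gapdh*, *Slc2a3*, *Ldha* and *Pfkp*, against 33.5% of the 10241 genes tested. *Pkm* and *Hk2* were lower in both, against 21.8%. limma called 0 genes at an adjusted p of 0.05, with 2098 genes (20.5%) and 5 members at an unadjusted p under 0.05. With all 12 libraries sharing 1 estimate of the spread limma called 264 genes, *Aldoa* among them (adjusted p = 0.0226), and with robust variances 26 genes and no member.

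*Aldoa* gave 9.84 and 9.54 RPKM in WT and 15.5 and 14.2 RPKM in EloA null cells after 10 min. With the groups well apart, the ratio was 1.53 (log2 fold change 0.61, SE 0.09, limma adjusted p = 0.101), and *Aldoa* was the 1 member past 1.5-fold, against 9.41% of genes higher and 3.01% lower. The count was 0 without the first EloA null library, with each library centred on its median and with the trend with GC content removed (log2 fold change 0.23), 2 without the first WT library and 3 without the second EloA null library. Over all genes, 964 were higher and 308 lower past 1.5-fold, 707 and 407 with centering, and 578 and 392 with the trend with GC content removed.

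*Gapdh* gave 18.1 and 14.7 RPKM in WT and 23.7 and 21.3 RPKM in EloA null cells, a ratio of 1.37 (log2 fold change 0.46, SE 0.14, limma adjusted p = 0.194), and its log2 fold change was 0.11 with the trend with GC content removed. *Slc2a3* gave 32.8 and 37.0 RPKM in WT and 53.1 and 44.5 RPKM in EloA null cells, a ratio of 1.40 (log2 fold change 0.48, SE 0.13, limma adjusted p = 0.174). Both genes were thus higher in EloA null cells in steady state and after 10 min, while after 5 min their libraries overlapped.

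*Pkm* gave 15.3 and 15.1 RPKM in WT and 11.9 and 11.6 RPKM in EloA null cells after 10 min. The libraries of each genotype almost coincided, at a ratio of 0.773 (log2 fold change -0.37, SE 0.08, limma adjusted p = 0.152). *Hk2* gave 9.03 and 7.02 RPKM in WT and 6.98 and 6.13 RPKM in EloA null cells, a ratio of 0.817 in which the nearest libraries of the genotypes almost touched (limma adjusted p = 0.374). *Ldha*, lower in EloA null cells after 5 min, was higher after 10 min, with 2.74 and 2.89 RPKM in WT and 4.35 and 3.47 RPKM in EloA null cells, a ratio of 1.39 (log2 fold change 0.45, SE 0.14, limma adjusted p = 0.204). *Eno1* (18.0 and 16.8 against 19.1 and 17.1 RPKM) and *Slc2a1* (3.86 and 2.65 against 4.09 and 3.31 RPKM) overlapped, as did *Pfkl* (0.263 and 0.166 against 0.290 and 0.205 RPKM), and *Pfkp* was just apart (2.23 and 2.28 against 2.55 and 2.31 RPKM, log2 fold change 0.10). The feeder markers summed to 2.89 to 3.72 RPKM in WT and 2.21 to 2.79 RPKM in EloA null cells, and the mESC markers to 308 to 334 RPKM in WT and 292 to 299 RPKM in EloA null cells. The part of either in these differences was not tested.

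Whether the genotype difference itself changed between conditions was tested by interaction terms in a limma fit of all 12 libraries. No member passed. From steady state to 5 min, 12 of 11704 genes passed (0.103%), and 3 members were below an unadjusted p of 0.05, as were 6.47% of genes. The log2 fold change moved by -0.50 in *Gapdh* (SE 0.19, limma adjusted p = 0.688), by -0.52 in *Ldha* (SE 0.21, limma adjusted p = 0.736) and by -0.32 in *Aldoa* (SE 0.14, limma adjusted p = 0.753). The move in *Ldha* rests in part on the steady-state EloA null library with a genotype label of wild type. Without that library the steady-state log2 fold change of *Ldha* was 0.017, in place of 0.23. From steady state to 10 min, 1 of 11763 genes passed (0.0085%) and no member was below an unadjusted p of 0.05, as were 1.6% of genes. From 5 min to 10 min, a term added after the values were seen, 10 of 10864 genes passed (0.092%), and *Ldha* and *Aldoa* were below an unadjusted p of 0.05, as were 5.35% of genes. The log2 fold change moved by 0.74 in *Ldha* (SE 0.21, limma adjusted p = 0.682) and by 0.40 in *Aldoa* (SE 0.14, limma adjusted p = 0.819). The 3 terms share libraries and are not independent.

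The other genes of sugar metabolism were described by the same counts, and genes past 1.5-fold without overlap between genotypes are named. Of all genes tested, 6.24% in steady state, 4.36% after 5 min and 8.43% after 10 min were higher by this rule, and 4.91% were lower after 5 min and 2.25% after 10 min. Of 20 other glycolytic enzymes, 9 were expressed in steady state and 6 of these were higher in both EloA null libraries (against 32% of all genes tested), with a median log2 fold change of 0.29 (0.03 over all genes tested, 0.21 over the 10 members). limma called none of them in any table. The values of these neighboring lists are given without centering and without removal of the trend with GC content. Over all genes tested in steady state, that removal left 505 genes past 1.5-fold higher, in place of 818. *Ldhb*, which encodes the lactate dehydrogenase subunit that favors pyruvate, gave 1.12 and 1.09 RPKM in WT and 1.87 and 1.86 RPKM in EloA null cells, and was past 1.5-fold in all 3 tables. After 5 min it passed the limit of 0.5 RPKM only through EloA null cells (mean 0.437 RPKM in WT and 0.922 RPKM in EloA null cells). After 10 min it gave 1.20 and 0.943 against 2.51 and 2.36 RPKM (log2 fold change 1.12, SE 0.15, limma adjusted p = 0.0957). *Tpi1*, the triosephosphate isomerase, and *Pgam2*, a phosphoglycerate mutase, were past 1.5-fold in steady state (0.949 and 0.846 against 1.55 and 1.22 RPKM for *Tpi1*) and after 10 min. In steady state *Tpi1* passed only through the EloA null library with a genotype label of wild type (1.55 RPKM). The second EloA null library (1.22 RPKM) was less than 1.5-fold above the WT mean of 0.898 RPKM. *Gpi1*, *Pgk1* and *Pgam1*, the highest of this list in WT, had steady-state log2 fold changes of -0.01, 0.10 and 0.15.

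Among 13 other sugar and lactate transporters 5 were expressed. *Slc16a1*, which encodes the lactate and pyruvate carrier MCT1, was lower in EloA null cells in all 3 tables, with 5.56 and 5.30 against 4.65 and 4.00 RPKM in steady state and 9.86 and 9.29 against 6.19 and 6.15 RPKM after 10 min (log2 fold change -0.62, SE 0.09, limma adjusted p = 0.0987). *Slc2a9* was past 1.5-fold higher in every table at levels under 1 RPKM, and *Slc2a8* after 10 min. In recovery *Slc2a9* passed the limit of 0.5 RPKM only through EloA null cells (WT means 0.499 RPKM after 5 min and 0.373 RPKM after 10 min). The same held for *Slc2a8* after 10 min (WT mean 0.431 RPKM). Genes as low in both genotypes would not have been tested. *Bsg*, the chaperone of MCT1, had a log2 fold change of 0.18 in steady state.

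Of 10 expressed regulators of glycolysis no gene was past 1.5-fold in any table, and *Txnip*, a brake on glucose uptake, gave 15.8 and 13.1 against 17.4 and 15.2 RPKM in steady state. *Tigar*, which lowers fructose 2,6-bisphosphate, and *Pdp2*, a phosphatase that activates pyruvate dehydrogenase, had steady-state log2 fold changes of 0.14 and 0.20. In the pentose phosphate pathway, 8 genes were expressed, of which *Tkt* (transketolase, 3.10 and 2.74 against 4.25 and 4.83 RPKM) and *Pgls* (6-phosphogluconolactonase, 1.07 and 0.815 against 1.59 and 1.45 RPKM) were past 1.5-fold higher in steady state, and *Pgd* was past 1.5-fold lower after 5 min (1.19 and 1.11 against 0.659 and 0.845 RPKM). *Rpe* had a steady-state log2 fold change of -0.14.

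Of 4 expressed genes of gluconeogenesis 3 were past 1.5-fold higher in steady state. *Pck2*, the mitochondrial phosphoenolpyruvate carboxykinase, gave 1.41 and 1.26 RPKM in WT and 3.32 and 2.62 RPKM in EloA null cells (log2 fold change 1.09, SE 0.14, limma adjusted p = 0.105). *G6pc3* and *Fbp2* had log2 fold changes of 0.73 and 0.58 at levels under 1 RPKM, and *Pcx* -0.03. *G6pc3* passed the limit of 0.5 RPKM only through EloA null cells (mean 0.361 RPKM in WT and 0.664 RPKM in EloA null cells). Had it been as low in both genotypes, it would not have been among the genes counted. Of 15 expressed genes of the HIF pathway, 7 were higher and 2 lower in both EloA null libraries in steady state, against 32% and 21.4% of all genes tested. *Vegfa*, a HIF target that drives vessel growth, gave 1.86 and 1.89 RPKM in WT and 3.41 and 3.76 RPKM in EloA null cells (log2 fold change 0.90, SE 0.09, limma adjusted p = 0.0858), and *Ndrg1* was past 1.5-fold at under 1 RPKM. *Hif1a* itself gave 3.42 and 3.54 against 3.12 and 2.55 RPKM, and *Egln2* and *Kdm3a* had log2 fold changes of 0.28 and -0.05. *Ddit4* was past 1.5-fold higher at both times of recovery. After 5 min *Ddit4* passed the limit of 0.5 RPKM only through EloA null cells (mean 0.408 RPKM in WT and 0.962 RPKM in EloA null cells). The same held for *Ndrg1* in steady state (0.323 and 0.563 RPKM). There *Ndrg1* also rested on the EloA null library with a genotype label of wild type (0.652 RPKM). The second EloA null library, at 0.474 RPKM, was under the limit and less than 1.5-fold above the WT mean.

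**Figure D4:**
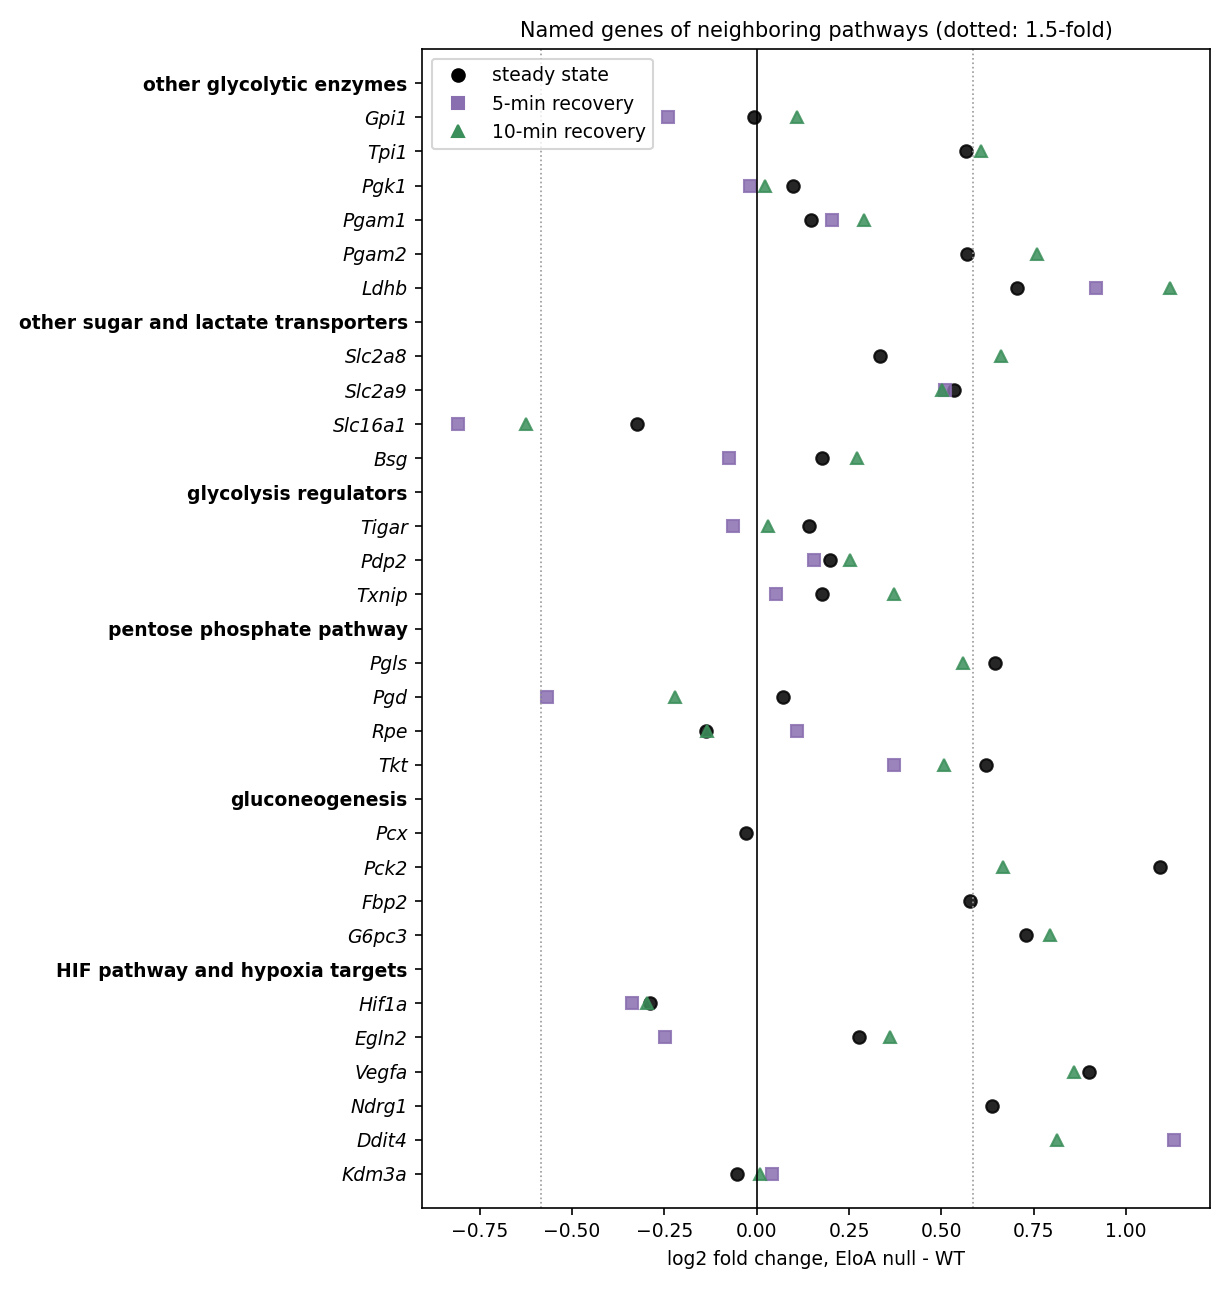
Log2 fold change of EloA null against WT (horizontal axis, on log2(RPKM + 0.1), dotted lines at 1.5-fold) of the named genes of 6 neighboring gene lists (rows) in steady state (circles), after 5 min (squares) and after 10 min (triangles) of recovery; genes under the RPKM limit in a table have no symbol there. *Ldhb* lay to the right of the 1.5-fold line in all 3 conditions and *Slc16a1* to the left of 0 in all 3. A gene past 1.5-fold in mean RPKM can lie just inside the line because 0.1 was added.

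Finally, the genes most like the members were sought among 7342 genes above 0.5 RPKM in all 6 groups, by Pearson's r of log2(RPKM + 0.1) over the 12 libraries, as a description. The libraries fall into 3 conditions with separate tables, so r mostly follows the conditions. Within the members, *Hk2* and *Pkm* were alike (r = 0.980), as were *Pfkl* and *Slc2a1* (r = 0.930) and *Aldoa* and *Gapdh* (r = 0.898). *Ldha* and *Eno1* were also most like *Hk2* among the members (r = 0.917 and 0.904), and *Pfkp* was most like *Pfkl* (r = 0.828). The values of *Pfkl* after 5 min rest on 7 to 13 reads a library. *Slc2a3* had no close partner among the members, its highest r being 0.365 with *Aldoa*, and its closest gene was *Asna1* (r = 0.990). For *Slc2a1* it was *Ipmk* (r = 0.998), for *Hk2* *Ndufa10* (r = 0.995), for *Pfkl* *Smad1* (r = 0.993) and for *Pkm* *Ahctf1* (r = 0.993). *Eno1* was most like *Trim39* (r = 0.988), *Aldoa* like *Rpp14* (r = 0.972), *Ldha* like *Klf10* (r = 0.970) and *Pfkp* like *Smyd1* (r = 0.954).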

How the data were processed

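Of 28 samples in the series, the 12 Bru-seq libraries were analyzed, and the other 16 (protein binding) were not used here. Paired-end reads had been aligned by the authors to mm10 and to the fly genome dm3 with Bowtie2 2.3.4.3, uniquely aligned reads were kept with SAMtools and counted over RefSeq genes with featureCounts 1.6.1, and RPKM values were made with edgeR and deposited as 1 table per condition (versions per the submitters' processing notes, which also name HOMER 4.10.3). Whether fly reads scaled the values, and whether counting used strand, is not given in the sources used here. The authors' mean columns were not used in any comparison. Summed intron length was taken as the length behind the RPKM. Among genes with introns and 1 curated transcript, 98.9% to 99.1% of values then gave whole reads (tolerance 0.05). With the span of the gene, 9.19% to 10.5% did. Read counts were not used in any test. Groups came from sample titles.

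EloA null was compared with WT within each table with limma 3.58.1 (R 4.3.3), with an intensity trend, on log2(RPKM + 0.1), for genes with a mean above 0.5 RPKM in either genotype, with Benjamini-Hochberg adjustment over all genes tested (two-sided, threshold 0.05). Fold changes on this scale understate changes of low genes. A 1.5-fold ratio of means and the 0.5 RPKM limit follow the study. Interaction terms used all 12 libraries. The fits were tested on simulated data. Other steps used Python 3.11.15, pandas 2.3.3 and numpy 2.4.6. Of 24984 gene symbols, 24420 matched RefSeq and 423 matched an older symbol there. Named genes were all members, *Eloa*, and, of each other list, up to 3 genes highest in WT and those past 1.5-fold without overlap between genotypes. Feeder markers at 0 in some libraries are named besides. The members and lists were chosen with earlier results of these data known. Alternatives were other pseudocounts, RPKM limits, centering, removal of the trend with GC content, a replicate block, robust variances, 1 variance estimate over all libraries, and leaving out each library. 1 result of the search for genes of like pattern is not reported here.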

Additional observations from a re-analysis of the deposited data

Results flagged for a closer look

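*Ldha* was lower in both EloA null libraries after 5 min of recovery and higher in both after 10 min, so the genotype difference had opposite signs at the 2 times. The difference between the 2 log2 fold changes was 0.74 (SE 0.21, 95% interval 0.26 to 1.23, limma unadjusted p = 0.0075), and it did not pass after adjustment over all genes (limma adjusted p = 0.682). It lay between 0.54 and 0.90 under 17 alternatives, with limma adjusted p from 0.319 to 1.00. This term was added after the values of *Ldha* were seen.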

How the results depend on the processing

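The direction of the difference held under all 14 alternatives for *Aldoa*, *Gapdh*, *Ldha*, *Slc2a1* and *Slc2a3* in steady state, for *Hk2*, *Aldoa*, *Eno1*, *Pkm* and *Slc2a3* after 5 min, and for *Hk2*, *Pfkp*, *Aldoa*, *Gapdh*, *Pkm*, *Ldha* and *Slc2a3* after 10 min. *Ldha* after 5 min had 13 alternatives, since it was under a limit of 2 RPKM, and held in all. Only *Aldoa* crossed the threshold, in steady state and after 10 min with 1 variance estimate over all libraries.

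Where a setting changed a sign, the cause was not tested. With each library centered on its median, the log2 fold change of *Hk2* in steady state was -0.0041, of *Pfkp* after 5 min 0.0017 and of *Eno1* after 10 min -0.041. With the trend with GC content removed, with or without the replicate block, *Hk2*, *Pfkl* and *Eno1* in steady state were at -0.083, -0.14 and -0.12, and *Eno1* and *Slc2a1* after 10 min at -0.17 and -0.027. Leaving out 1 library gave in steady state -0.038 to 0.15 for *Hk2*, -0.21 to 0.42 for *Pfkl*, -0.012 to 0.39 for *Pfkp*, -0.095 to 0.23 for *Eno1* and -0.29 to 0.0091 for *Pkm*. After 5 min it gave -0.18 to 0.057 for *Pfkp*, -0.093 to 0.19 for *Gapdh* and -0.29 to 0.12 for *Slc2a1*, and after 10 min -0.022 to 0.13 for *Eno1* and -0.064 to 0.46 for *Slc2a1*.

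The number of members past 1.5-fold was 0 after centering in both recovery tables and 0 after 10 min with the GC trend removed. Without 1 library it ranged from 0 to 1 in steady state, 0 to 2 after 5 min and 0 to 3 after 10 min. In EloA null cells, 5 members were over 1.5-fold below steady state after 5 min with centering, 6 after 10 min with libraries scaled to genes under 10 kb, and 1 to 2 were above it after 10 min without 1 library.

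Genes that limma called numbered 132, 532 and 264 (steady state, 5 min, 10 min) with 1 variance estimate over all 12 libraries and 81, 29 and 26 with robust variances. With genes above 2 RPKM they numbered 1 in steady state and 7 after 10 min, and after 10 min 5 with a pseudocount of 1, 12 with centering and 11 with the GC trend removed. After 5 min they numbered 61 or 64 without the first or second WT library, 90 without the first and 0 without the second EloA null library. After 10 min they numbered 0 or 49 without the first or second WT library and 70 or 81 without the first or second EloA null library. Genes past 1.5-fold numbered 5697, 6775 and 6662 with no limit on RPKM and 357, 342 and 483 above 2 RPKM, where fewer genes were tested, and 1276 to 1685 after 5 min without 1 library. Of genes past 1.5-fold, 77.5%, 44.5% and 75.8% were higher, against 69.6%, 54.5% and 63.5% with centering and 63.2%, 51.9% and 59.6% with the GC trend removed.

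The interaction from steady state to 5 min called 33 genes with a pseudocount of 0.01, 3 with 1, 57 with no limit, 4 above 2 RPKM and 5 to 34 without 1 library. From steady state to 10 min the counts were 5, 4, 27, 0 and 1 to 16, and from 5 min to 10 min 33, 2, 32, 7 and 1 to 14.

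Libraries of the same replicate number deviated together with r = 0.10, 0.12 and 0.10 in the 3 tables, over 2 pairs each. With so few pairs, r cannot show whether libraries of the same number were prepared together. The replicate block gave 128 called genes after 5 min (0 with the GC trend also removed), 2 for the interaction from steady state to 5 min and 4 for that from 5 min to 10 min. With the block, and with the GC trend removed, the interactions gave 6, 0 (steady state to 10 min) and 4.

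The deposited tables hold no read counts. *Pfkl* rested on 7 to 13 reads per library after 5 min. With 2 libraries a group, intervals were wide, and values that missed the threshold may still differ.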
